A study of Mus musculus with 4 samples.

Results

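The genes described here code for the ATP-dependent chromatin remodelling enzymes and their subunits, together with the bromodomain and AT-rich interaction domain (ARID) proteins whose symbols fall under the same naming rule. They were taken from the table of all genes by symbol (every *Smarc*, *Chd*, *Arid*, *Ino80*, *Brd* and *Baz* gene with a numbered or lettered member name, and *Bptf*, *Ep400*, *Pbrm1* and *Srcap*). The rule uses symbols only, but it was set with earlier results of these data known. The rule found 56 of the 24421 genes listed: 15 of the BAF family, 11 of the CHD family, 16 of the ISWI and INO80 families, and 14 other members. Among the 56 are the antisense RNAs *Chd3os* and *Ino80dos* and the pseudogene *Smarca5-ps*, which the rule takes in by name although they code for no remodeller.

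RNA was sequenced from CD69+CD4+CD8+ (CD69+DP) thymocytes, FACS-sorted from the adult thymus of C57BL/6 mice aged 6 weeks. The 2 control samples came from Foxa1fl/flFoxa2fl/fl CD4Cre- mice and the 2 Foxa1/2cKO samples from Foxa1fl/flFoxa2fl/fl CD4Cre+ mice, so that both groups carried the floxed alleles and only Foxa1/2cKO carried the Cre transgene. Cre under the *Cd4* promoter acts in T-lineage cells from the DP stage onwards, and other cells of the thymus keep both genes. Each sort took 2 mice of each genotype, and no mouse gave cells to more than 1 sample; the sources used here leave unclear whether a sample held the cells of several mice. Foxa1 and Foxa2 are pioneer factors, which can bind condensed chromatin, and the comparison given here is of the level of the remodelling genes between the genotypes.

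Remodellers use the energy of ATP to slide, eject or exchange nucleosomes. The BAF (SWI/SNF) complexes, built around the ATPases Brg1 (*Smarca4*) or Brm (*Smarca2*), open chromatin at enhancers and promoters. The CHD proteins carry chromodomains next to the motor, and Chd3 and Chd4 are the alternative motors of the NuRD complex, which joins remodelling to histone deacetylation. ISWI complexes space nucleosomes, and the INO80, SRCAP and p400 complexes exchange the histone variant H2A.Z. In thymocytes, Brg1 and Chd4 are known for roles in the expression of *Cd4* and in the passage between the double-negative, DP and single-positive (SP) stages. A bromodomain binds acetylated lysine in histone tails, and the BET proteins, among them Brd2 and Brd3, use it to recruit the transcription machinery.

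Promoter windows of RefSeq on GRCm38 (the mm10 assembly), which reach from 250 bases before to 50 bases after a transcript start, were matched for 41 of the 56 members in 52 windows. They were searched for the forkhead letters TGTTTAC and TGTTTGC on both strands, since Foxa1 and Foxa2 bind sites of this kind. Either run of letters was held by 4 of the 52 windows of members (7.69%), and by 8.48% of all 32851 promoter windows. TGTTTAC alone was held by 3.65% and TGTTTGC by 5.07% of all windows. The matches are printed on the strand of the gene, with the forkhead letters (for *Brd2* their reverse complement) in capitals. These are the member promoters to which the letters can be tied, and a match is a description of the sequence and not a bound site. For *Chd9* and *Brd2* the window belongs to a transcript start well inside the gene. *Chd9* begins at 90828302 on the plus strand, and *Brd2* runs from 34122814 down to 34112019 on the minus strand.
Chd9 promoter, chr8:90932123-90932163, plus strand: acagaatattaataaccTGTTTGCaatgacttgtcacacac
Arid4b promoter, first match, chr13:14063610-14063650, plus strand: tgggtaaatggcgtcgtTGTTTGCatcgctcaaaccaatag
Arid4b promoter, second match, chr13:14063773-14063813, plus strand: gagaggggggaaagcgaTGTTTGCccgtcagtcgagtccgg
Brd1 promoter, chr15:88734206-88734246, minus strand: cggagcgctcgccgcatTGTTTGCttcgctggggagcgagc
Brd2 promoter, chr17:34120103-34120143, minus strand: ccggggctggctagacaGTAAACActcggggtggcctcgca

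Levels are given in FPKM, fragments per kilobase of a gene divided by a scaled total of each sample. These totals were proportional to median-of-ratios size factors and were not the plain sequenced depth. From the steps between the values, 10396878 to 14482758 reads per sample could be recovered on the listed genes. *Foxa1* and *Foxa2* were listed at 0 in all 4 samples, so the values do not check the genotypes. All 8 DP thymocyte markers were present, the lowest at 36.8 FPKM. Summed over 4 markers each, B cell genes came to 30.2 to 77.1 FPKM, myeloid genes to 9.39 to 19.4, thymic epithelial genes to 2.93 to 3.97 and erythroid genes to 0.608 to 2.67, with the globins *Hba-a1* and *Hbb-bs* at 0. Over all genes, 65.2% of the variance lay on a first principal component that set Foxa1/2cKO 2 (28.5) apart from the other 3 samples (-11.0 to -7.42). This sample also had the highest sum of the DP markers (3148 FPKM, against 2443 to 2522). The sum does not stand for every marker: *Rag1* (368 FPKM) and *Cd3e* (396 FPKM) were not highest in this sample. *Rag2* had 39.9 FPKM in both Foxa1/2cKO samples.

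The remodelling genes were expressed at high levels in CD69+DP cells. Of the 56 members, 51 had at least 1 FPKM in at least 2 samples and were tested: 14 BAF, 10 CHD, 15 ISWI and INO80, and 12 other members. Their median level was 38.7 FPKM, against 14.8 FPKM over the 10776 genes tested, and 41 of the 51 lay above the median gene. The 5 members under this limit include genes known from other tissues. *Smarcd3*, the BAF60c subunit of heart and muscle, had 0.0387 and 0.0427 FPKM in the controls and was listed at 0 in both Foxa1/2cKO samples, where 3 reads would give up to 0.161 FPKM (counting error only). *Chd5*, the NuRD motor of neurons and testis, ranged from 0.0388 to 0.0775 FPKM, *Arid3c* from 0 to 0.0515 and *Smarca5-ps* from 0.264 to 0.659. *Smarca1*, the ISWI motor Snf2l, was listed at 0 in all 4 samples. These low values include reads that other genes can hold: 61.4% of the 50-base stretches of *Smarcd3* are shared with other annotated genes, mainly *Chpf2*, and 64.0% of those of *Smarca5-ps* with *Smarca5* and other copies of it.

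**Figure D1:**
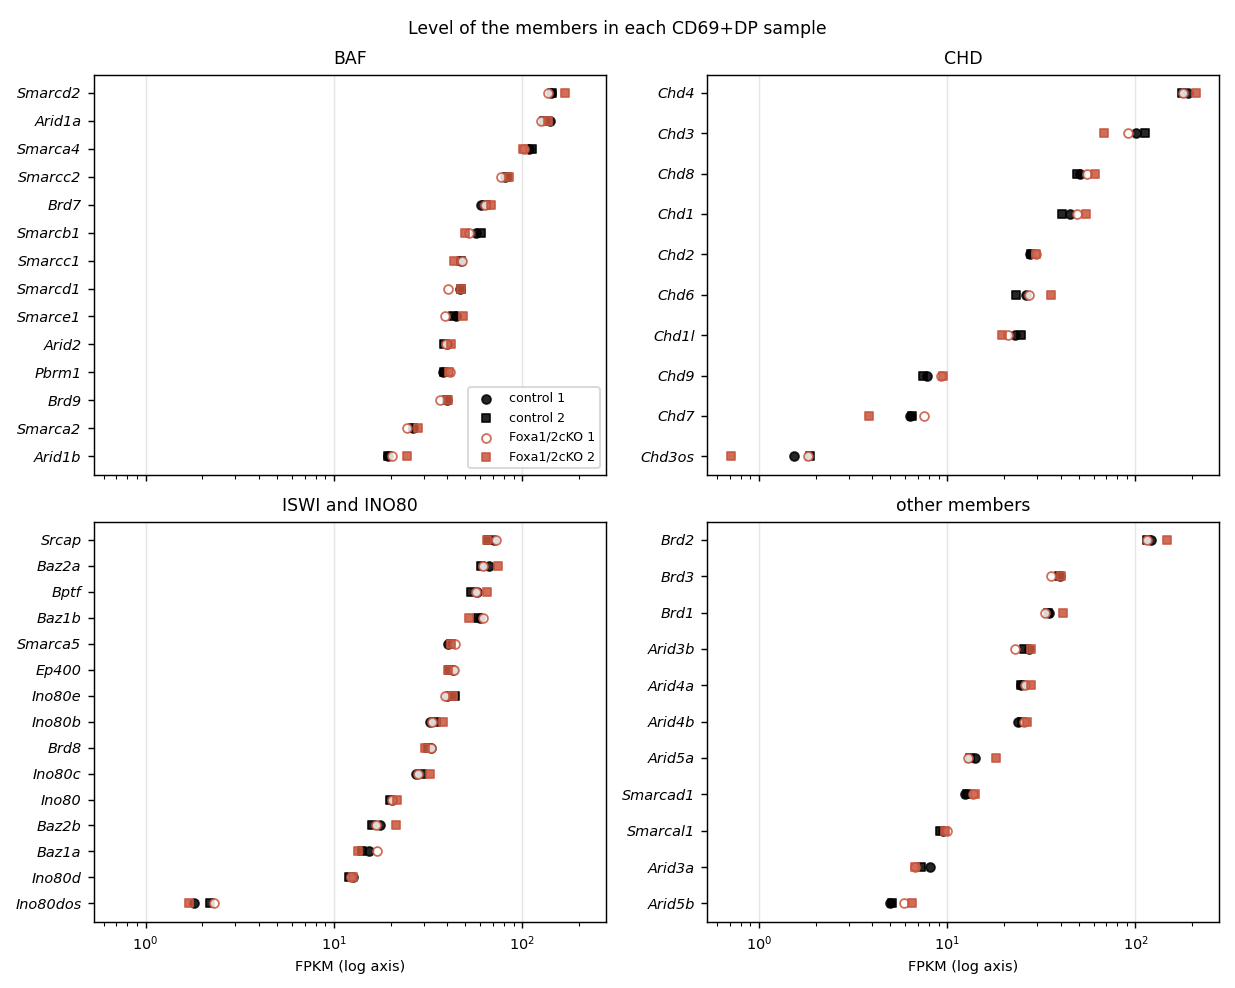
FPKM (log axis) of 50 of the 51 tested members in each of the 4 CD69+DP samples, in 4 panels by family and ordered by mean level within each. Black marks are the controls and orange marks the Foxa1/2cKO samples; most genes show 4 marks close together, while *Chd3*, *Chd7* and *Chd3os* have the Foxa1/2cKO 2 square far to the left.

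No member passed the threshold between the genotypes. In limma on log2(FPKM + 1), 0 of the 51 members had an adjusted p under 0.05, and over all genes tested 1 did (0.00928%); the smallest adjusted p of a member was 0.863. Without adjustment, 1 member had a p under 0.05 (*Chd9*), where 4.55% of all genes did. The fitted log2 fold changes ran from -0.43 (*Chd3*) to 0.32 (*Chd6*). All 51 were within 0.5 of 0, as were 10326 of the 10776 genes tested. The median over the members was 0.06, against 0.01 over all genes, with 29 members higher and 22 lower in mean. Of all genes, 51.3% were higher in mean. The groups did not overlap for 18 of the 51 members (35.3%), against 36.7% of all genes. Foxa1/2cKO was the higher group in 12 of the 18 (18.9% of all genes were of this kind) and the lower in 6 (17.8% of all genes).

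The count of calls rested on which Foxa1/2cKO sample was kept. Without Foxa1/2cKO 1, 23 members had an unadjusted p under 0.05 (40.1% of all genes did) and 13 an adjusted p under 0.05 (25.4% of all genes did), 9 higher and 4 lower, with the lone Foxa1/2cKO sample assumed to vary like the controls. These 13 were *Arid1b*, *Smarcb1*, *Smarcd2*, *Chd1*, *Chd3*, *Chd3os*, *Chd6*, *Chd7*, *Chd8*, *Baz2b*, *Brd1*, *Brd2* and *Arid5a*. Without Foxa1/2cKO 2, 7 members had an unadjusted p under 0.05 (17.7% of all genes did) and 0 an adjusted p under 0.05 in limma. Without control 1 or control 2, 0 members had an unadjusted p under 0.05, where 1.09% and 0.573% of all genes did. The share of members past the adjusted threshold without Foxa1/2cKO 1 was near that of all genes, so the count says nothing particular to the members.

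By family, the median absolute log2 fold change was 0.24 in the CHD family, 0.12 in the other members, 0.07 in the BAF family and 0.05 in the ISWI and INO80 families, against 0.11 over all genes. An absolute log2 fold change under 0.2 was found for all 14 BAF and all 15 ISWI and INO80 members, for 11 of the 12 other members and for 2 of the 10 CHD members, against 74.8% of all genes. The CHD count rested on few samples: it was 8 of 10 without Foxa1/2cKO 2, 5 of 10 without control 2 and 5 of 10 with the length trend removed. Without Foxa1/2cKO 1 it was 2 of 10, and 11 of the BAF and 12 of the ISWI and INO80 members were under 0.2. These shares are a description, with no test of the difference between families.

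**Figure D2:**
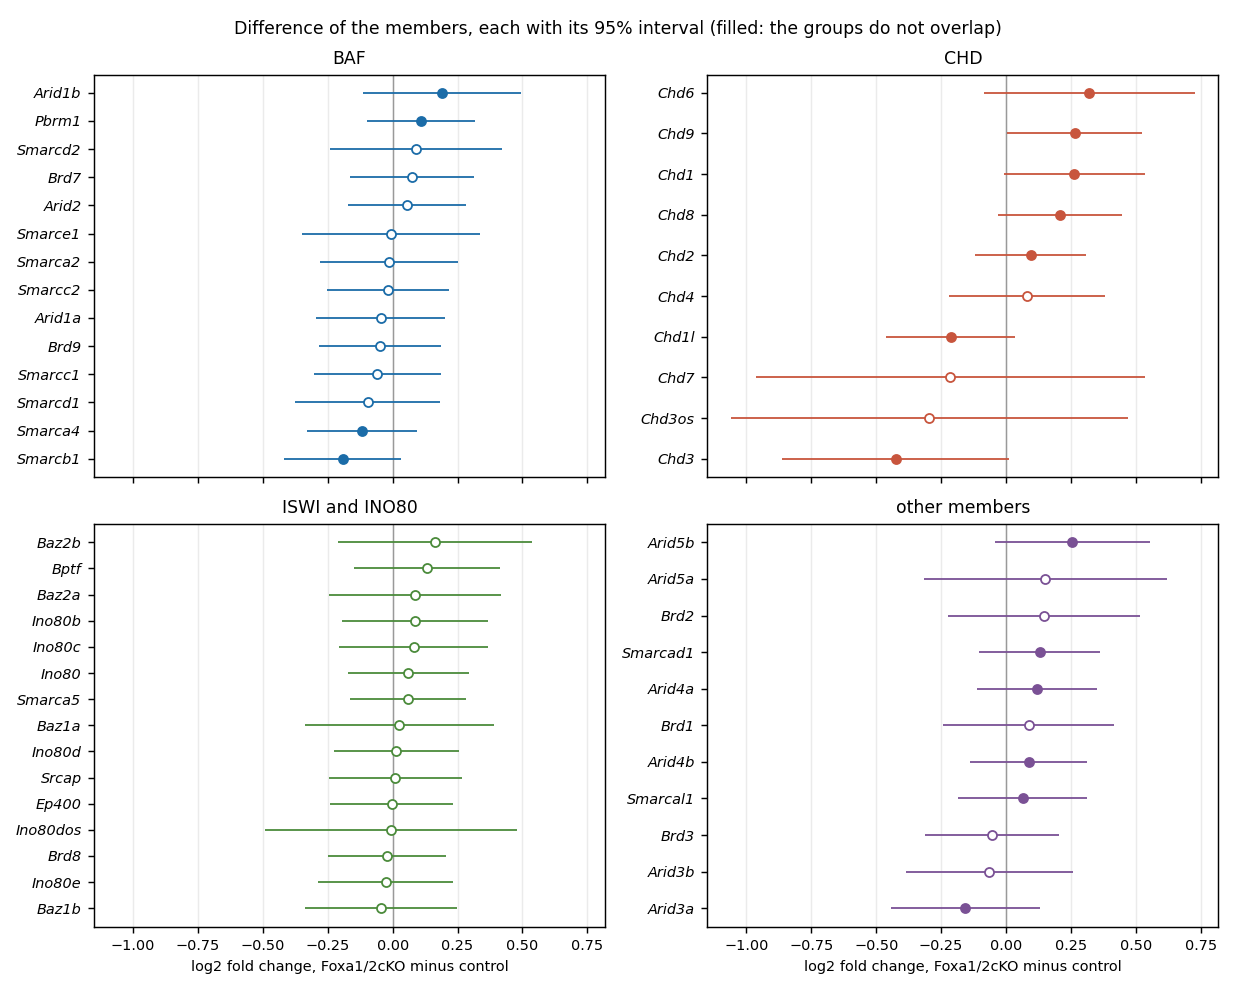
Fitted log2 fold change (Foxa1/2cKO minus control) of 50 of the 51 tested members, each with its 95% interval, by family; filled points are members whose groups do not overlap. The points of the BAF and ISWI and INO80 panels lie within 0.2 of 0. Their intervals reach from -0.42 to 0.49 for BAF and from -0.49 to 0.54 for ISWI and INO80. The points of the CHD panel spread from -0.43 to 0.32, and only the interval of *Chd9* leaves out 0, before adjustment.

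Of the BAF motors, *Smarca4* (GRCm38 chromosome 9, 21616106 to 21704230, plus strand) was the more abundant. Its level was 109 and 113 FPKM in the controls and 103 and 101 FPKM in Foxa1/2cKO, so that Foxa1/2cKO lay below control by a small margin in both samples (log2 fold change -0.12, SE 0.08, adjusted p = 0.863 from limma). *Smarca2* had 26.2 and 26.4 FPKM in the controls and 24.4 and 27.8 FPKM in Foxa1/2cKO, which lay on either side of the controls (log2 fold change -0.01, 95% interval -0.28 to 0.25). *Smarcd2*, the BAF60b subunit known from blood cells, was the most abundant BAF gene, with 142 and 143 FPKM in the controls and 136 and 168 FPKM in Foxa1/2cKO. Its excess was in Foxa1/2cKO 2 alone, and the log2 fold change of 0.09 became -0.06 without that sample.

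The core subunit *Smarcb1* (BAF47), which contacts the nucleosome, had 57.0 and 60.4 FPKM in the controls and 52.4 and 49.99 FPKM in Foxa1/2cKO. This was the lowest log2 fold change of the family (-0.19, SE 0.09, adjusted p = 0.863 from limma), and the groups did not overlap. The largest in the other direction was that of *Arid1b*, the less abundant of the alternative DNA-binding subunits of canonical BAF, with 19.4 FPKM in both controls and 20.3 and 24.3 FPKM in Foxa1/2cKO (log2 fold change 0.19, SE 0.12). It was 0.064 without Foxa1/2cKO 2, 0.31 without Foxa1/2cKO 1 and 0.095 with the length trend removed. *Pbrm1*, which marks the PBAF form, had 38.0 and 38.3 FPKM in the controls and 41.3 and 41.1 FPKM in Foxa1/2cKO (log2 fold change 0.11). The groups overlapped for the scaffolds *Smarcc1* and *Smarcc2*, for *Smarcd1*, *Smarce1*, *Arid1a*, the PBAF subunits *Arid2* and *Brd7*, and *Brd9* of the non-canonical form. Their log2 fold changes ran from -0.10 to 0.07. The median of the 14 was -0.02, and the summed level of the family was 891 and 894 FPKM in control and 848 and 923 FPKM in Foxa1/2cKO.

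Members that replace each other within a complex allowed a ratio within each sample, in which the scaling of the sample cancels. The 5 pairs were chosen after the values were seen, and with 2 samples a group the exact two-sided permutation p is at least 0.333. The ratios of *Arid1a* to *Arid1b*, *Smarcd2* to *Smarcd1* and *Chd4* to *Chd3* had this smallest p. It was 0.556 after Benjamini-Hochberg adjustment over the 5. The ratio of *Smarca4* to *Smarca2* was 4.14 and 4.28 in control and 4.22 and 3.62 in Foxa1/2cKO. The ratio of *Arid1a* to *Arid1b* was 7.28 and 6.74 in control and 6.21 and 5.62 in Foxa1/2cKO, both lower. The ratio of *Smarcd2* to *Smarcd1* was 3.04 and 3.03 in control and 3.37 and 3.55 in Foxa1/2cKO, both higher. That of *Smarcc2* to *Smarcc1* was 1.70 and 1.74 in control and 1.60 and 1.96 in Foxa1/2cKO, on either side.

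The CHD family held the member with the highest level and those with the largest differences. *Chd4*, the main motor of NuRD (Mi-2β; GRCm38 chromosome 6, 125095980 to 125130591, plus strand), had 189 and 177 FPKM in the controls and 178 and 210 FPKM in Foxa1/2cKO, which overlapped (log2 fold change 0.08, 95% interval -0.22 to 0.38). *Chd3*, the alternative motor (Mi-2α; chromosome 11, 69343273 to 69369499, minus strand), had 101 and 112 FPKM in the controls and 91.7 and 68.0 FPKM in Foxa1/2cKO. Both Foxa1/2cKO samples were lower, by unequal amounts: the log2 fold change was -0.43 (SE 0.17, 95% interval -0.86 to 0.01, adjusted p = 0.863 from limma), -0.21 without Foxa1/2cKO 2 and -0.64 without Foxa1/2cKO 1. The ratio of *Chd4* to *Chd3* was 1.87 and 1.58 in control, against 1.95 and 3.09 in Foxa1/2cKO. The antisense RNA *Chd3os* had 1.54 and 1.86 FPKM in the controls and 1.82 and 0.709 FPKM in Foxa1/2cKO, and was low in Foxa1/2cKO 2 only. Exons were counted without strand, and the setting for the gene values is not given in the sources used here. Without strand, reads of overlapping antisense genes cannot be told apart. The annotations gave no position for *Chd3os*, and 0% of the exon bases of *Chd3* lay in other annotated genes. *Chd3os* had 14 to 45 reads per sample, against 5492 to 11062 for *Chd3*.

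*Chd7*, a motor of the Kismet subfamily that acts at enhancers (chromosome 4, 8690402 to 8868449, plus strand), had 6.38 and 6.49 FPKM in the controls, against 7.50 FPKM in Foxa1/2cKO 1 and 3.83 FPKM in Foxa1/2cKO 2. The Foxa1/2cKO samples thus stood on opposite sides of the controls, and the log2 fold change of -0.21 (SE 0.29) became 0.19 without Foxa1/2cKO 2 and -0.62 without Foxa1/2cKO 1. The mature SP markers *Klf2*, *S1pr1* and *Ccr7* were low in the same sample: *Klf2* had 37.0, 43.0, 43.4 and 16.98 FPKM, *S1pr1* 12.3, 13.9, 13.4 and 6.40 FPKM, and *Ccr7* 82.5, 91.7, 86.9 and 39.1 FPKM in control 1, control 2, Foxa1/2cKO 1 and Foxa1/2cKO 2. The part of the makeup of the sorted cells in the values of *Chd3*, *Chd3os* and *Chd7* was not tested, and in bulk RNA fewer cells of a type and less RNA per cell cannot be told apart.

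*Chd1*, *Chd2*, *Chd6*, *Chd8* and *Chd9* lay on the higher side. *Chd9*, of the same subfamily as *Chd7* (chromosome 8, 90828302 to 91054516, plus strand), had 7.86 and 7.43 FPKM in the controls and 9.22 and 9.54 FPKM in Foxa1/2cKO, the member with the smallest p (1.201-fold, log2 fold change 0.26, SE 0.10, unadjusted p = 0.0475 and adjusted p = 0.863 from limma). The unadjusted p of *Chd9* in limma was 0.0695 with no filter on low values, 0.108 with upper-quartile scaling, 0.118 with the replicate block and 0.139 with the length trend removed, where the log2 fold change was 0.17. *Chd1*, which spaces nucleosomes behind the polymerase, had 44.9 and 40.9 FPKM in the controls and 48.8 and 54.6 FPKM in Foxa1/2cKO (log2 fold change 0.26, SE 0.10). *Chd6* had 26.2 and 23.2 FPKM in the controls and 27.2 and 35.4 FPKM in Foxa1/2cKO (log2 fold change 0.32, SE 0.16), and Foxa1/2cKO 1 lay just above control 1. Its log2 fold change was 0.14 without Foxa1/2cKO 2 and 0.51 without Foxa1/2cKO 1. *Chd8*, which binds β-catenin, had 50.8 and 49.2 FPKM in the controls and 55.3 and 60.7 FPKM in Foxa1/2cKO (log2 fold change 0.21, SE 0.09). *Chd2* had 27.5 and 28.0 FPKM in the controls and 29.7 and 29.8 FPKM in Foxa1/2cKO (log2 fold change 0.10, SE 0.08), with 19.3% of its exon bases in other annotated genes. In these 5 genes the groups did not overlap and Foxa1/2cKO was the higher, while in *Chd1l*, the poly(ADP-ribose)-activated remodeller Alc1, it was the lower, with 22.8 and 24.6 FPKM in the controls and 21.0 and 19.6 FPKM in Foxa1/2cKO (log2 fold change -0.21, SE 0.09). Of all 10 tested CHD genes, 7 thus did not overlap (36.7% of all genes), and 0 of the 7 passed the adjusted threshold in limma, with 1 at an unadjusted p under 0.05.

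**Figure D3:**
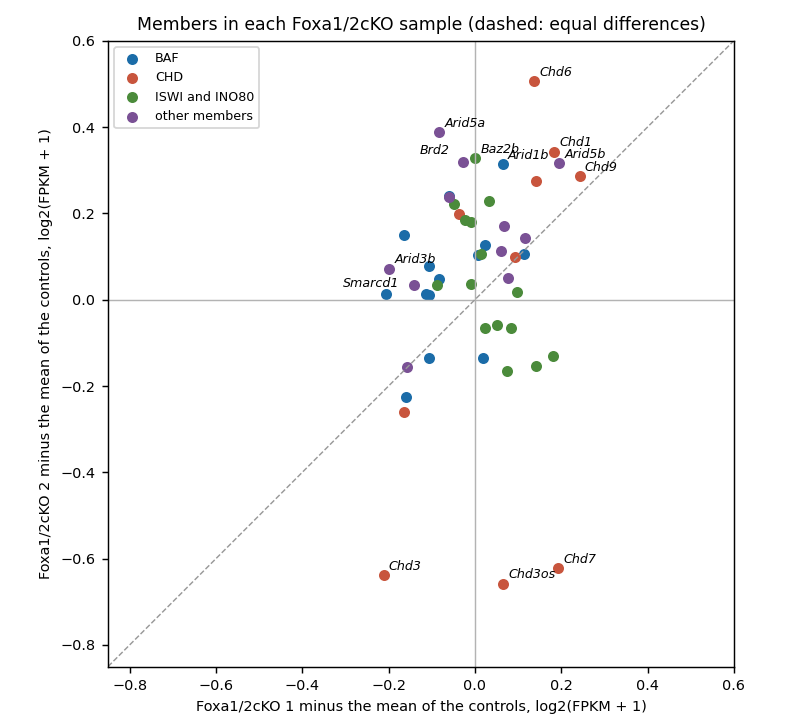
Difference of each Foxa1/2cKO sample from the mean of the controls on log2(FPKM + 1) for 50 of the 51 tested members, Foxa1/2cKO 1 on the x axis and Foxa1/2cKO 2 on the y axis, coloured by family, with the dashed line at equal differences. *Chd3*, *Chd3os* and *Chd7* lie near -0.64, -0.66 and -0.62 in Foxa1/2cKO 2, and of these *Chd3* alone is below 0 in Foxa1/2cKO 1.

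The ISWI and INO80 genes had the smallest median absolute difference of the families. Groups did not overlap for 0 of the 15 tested members (36.7% of all genes), and the log2 fold changes ran from -0.05 to 0.16. *Smarca5*, the ISWI motor Snf2h, had 40.3 and 41.9 FPKM in the controls and 44.1 and 41.6 FPKM in Foxa1/2cKO (log2 fold change 0.06, 95% interval -0.17 to 0.28), although 35.3% of its 50-base stretches are shared with annotated copies. *Bptf*, the subunit of NURF that reads methylated histone H3, had 57.6 and 53.3 FPKM in the controls and 56.7 and 65.1 FPKM in Foxa1/2cKO (log2 fold change 0.13). *Baz2a*, which with Snf2h silences ribosomal DNA, had 67.0 and 60.8 FPKM in the controls and 61.7 and 74.6 FPKM in Foxa1/2cKO (log2 fold change 0.09). *Baz2b* had 17.5 and 15.9 FPKM in the controls and 16.7 and 21.3 FPKM in Foxa1/2cKO, the largest difference of the family (log2 fold change 0.16, SE 0.14). In these 3 genes the excess was again in Foxa1/2cKO 2 only. *Baz1a* (Acf1) and *Baz1b* (the Williams syndrome transcription factor) were lowest in that sample, at 13.4 and 52.5 FPKM against 14.1 to 16.8 and 58.6 to 62.2 FPKM in the other 3.

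The large motors of H2A.Z exchange differed little between the groups. *Ino80* had 20.3 and 19.8 FPKM in the controls and 20.3 and 21.7 FPKM in Foxa1/2cKO (log2 fold change 0.06, 95% interval -0.17 to 0.29). *Srcap*, the most abundant gene of the family, had 70.7 and 65.7 FPKM in the controls and 72.3 and 65.1 FPKM in Foxa1/2cKO (log2 fold change 0.01, 95% interval -0.25 to 0.27). Of its 50-base stretches, 90.4% are shared with other annotated models, the largest part with an overlapping model on the same strand. *Ep400* had 43.0 and 40.8 FPKM in the controls and 43.4 and 40.1 FPKM in Foxa1/2cKO (log2 fold change -0.0035, 95% interval -0.24 to 0.23). In *Srcap* and *Ep400* each Foxa1/2cKO sample lay next to a control. The accessory subunits *Ino80b*, *Ino80c*, *Ino80d*, *Ino80e* and *Brd8* had mean levels from 12.4 to 41.3 FPKM, and *Ino80dos*, which overlaps *Ino80d* on the opposite strand, 2.01 FPKM.

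Among the other members, the BET gene *Brd2* was the most abundant. It had 122 and 115 FPKM in the controls and 116 and 148 FPKM in Foxa1/2cKO, with the excess in Foxa1/2cKO 2 only (log2 fold change 0.15, and -0.03 without that sample), and 9.78% of its exon bases overlap other genes, among them *H2-DMa* on the opposite strand. *Brd3* (35.6 to 40.4 FPKM) and *Brd1* (33.2 to 41.0 FPKM), a subunit of histone acetyltransferase complexes, overlapped between the groups.

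*Arid5b*, a DNA-binding protein that works with the demethylase Phf2, had 4.995 and 5.08 FPKM in the controls and 5.92 and 6.52 FPKM in Foxa1/2cKO, the largest difference of this group (log2 fold change 0.26, SE 0.11, adjusted p = 0.863 from limma). *Arid3a* (Bright) had 8.12 and 7.255 FPKM in the controls and 6.78 FPKM in both Foxa1/2cKO samples (log2 fold change -0.16). The retinoblastoma-binding proteins *Arid4a* and *Arid4b*, and the SNF2 enzymes *Smarcad1* and *Smarcal1* that act at stalled forks and broken DNA, lay above the controls in both Foxa1/2cKO samples, by log2 fold changes of only 0.06 to 0.13. *Arid3b* (23.0 to 27.9 FPKM) and *Arid5a* (12.8 to 18.2 FPKM) overlapped. Of the 4 genes with forkhead letters in a promoter window, the groups did not overlap for *Chd9* and *Arid4b* and overlapped for *Brd1* and *Brd2*. Over all genes, 36.7% did not overlap, and a link between the letters and the difference was not tested.

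The partner subunits that the symbols do not take in were followed on a list of 53 genes, of which 48 were tested. Of these, 0 had an adjusted p under 0.05 in limma and 3 an unadjusted p under 0.05 (4.55% of all genes did), all lower in Foxa1/2cKO and named after their values were seen. *Cdk2ap1* of NuRD had 9.62 and 11.2 FPKM in the controls and 6.67 and 7.79 FPKM in Foxa1/2cKO (log2 fold change -0.47, SE 0.13). *Bcl7a* of BAF had 26.7 and 26.4 FPKM in the controls and 22.1 and 18.3 FPKM in Foxa1/2cKO (log2 fold change -0.38, SE 0.12). *Gltscr1*, of non-canonical BAF, had 29.4 and 30.2 FPKM in the controls and 25.3 and 25.4 FPKM in Foxa1/2cKO (log2 fold change -0.22, SE 0.08). None of these 3 overlapped between the groups, each with an adjusted p of 0.863 from limma. Groups did not overlap for 20 of the 48 partners (41.7%, against 36.7% of all genes), with Foxa1/2cKO higher in 7 (18.9% of all genes were higher) and lower in 13 (17.8% of all genes were lower). Lower were 5 of the 11 BAF, 5 of the 12 NuRD, 0 of the 3 ISWI and 3 of the 22 INO80, SRCAP and p400 partners. *Bcl11b*, the T-lineage factor that is also a BAF subunit, had 144 and 153 FPKM in the controls and 137 and 151 FPKM in Foxa1/2cKO.

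The members agreed more closely within the controls than within Foxa1/2cKO. Over the 51 members, the log2 difference from control 1 to control 2 had an SD of 0.086, and that from Foxa1/2cKO 1 to Foxa1/2cKO 2 an SD of 0.249. Over all genes these SDs were 0.198 and 0.405. Within families, the SD for Foxa1/2cKO was 0.407 for CHD, 0.209 for ISWI and INO80, 0.153 for the other members and 0.139 for BAF. Of the 51 members, 35 were higher in Foxa1/2cKO 2 than in Foxa1/2cKO 1.

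The members are long genes, and gene length moved with the difference between the genotypes. The lengths recovered from the FPKM, up to a common divisor, had a median of 5780 bases over the members and 2750.5 bases over all genes, and 43 of the 51 members were longer than the median gene. Over all genes the median log2 fold change went from -0.02 in the shortest to 0.07 in the longest of 10 equal bins of length. Spearman's rho between length and log2 fold change was 0.22 over the 51 members and 0.14 over all genes, in values that share the same 4 libraries. After the length trend of each sample was removed, the median of the members was 0.01 in place of 0.06, and that of the CHD family 0.03 in place of 0.09.

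**Figure D4:**
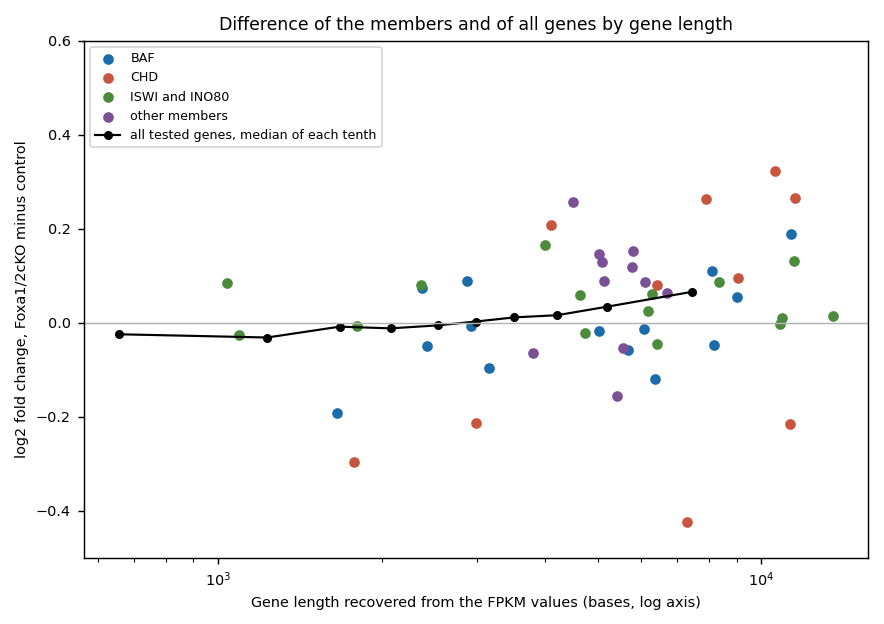
Log2 fold change (Foxa1/2cKO minus control) against gene length in bases (log axis) for 50 of the 51 tested members, coloured by family, with the medians of all tested genes in 10 equal bins of length as the black line. The line climbs from -0.02 to 0.07, and 43 of the 51 members are longer than the median gene.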

How the data were processed

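The authors deposited 1 table with the FPKM of 24421 genes in 4 samples. Reads were aligned to mm10 with RefSeq genes (TopHat, Picard and DESeq2 are in the submitters' processing notes). Counting was by HTSeq in the study's methods. The step that made FPKM is not given in the sources used here. From the steps of the values, 16069 genes above 0 gave whole reads (100%), unless a divisor is common to a gene's samples (59 of 60 genes checked had a whole length within 0.01 bases). The totals dividing the FPKM (10796528 to 14968316) were proportional to median-of-ratios size factors.

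Foxa1/2cKO was compared with control by limma 3.58.1 in R 4.3.3 on log2(FPKM + 1), with a mean-variance trend, on genes reaching 1 FPKM in 2 samples or more. P-values were adjusted over all of these by the Benjamini-Hochberg method, with 2 residual and 2.69 prior degrees of freedom. Fold changes on this scale understate those of low genes. The script was tested on simulated data. Spread between samples is that of separate sorts.

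The members and lists were chosen with earlier results of these data known. Values per sample were given for the motors, the 3 largest differences and the highest level of each family, members with an unadjusted p under 0.05, and, as ranges, members not tested. *Pbrm1* and *Chd1l*, for which the groups did not overlap, were given in addition. Alternatives were a pseudocount of 0.1, no filter, upper-quartile scaling, a replicate block, removal of the length trend (lowess, span 0.4), limma-voom on the recovered reads, and leaving out each sample. Positions came from RefSeq genes, and strands, exon overlaps and shared 50-base stretches from GENCODE models, both of the same assembly. Tables were made with Python 3.11.15. The values of 1 member and 1 marker are not reported here, though counts and medians include the member. Protein sequences and exon usage were not analysed here.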

Additional observations from a re-analysis of the deposited data

How the results depend on the processing

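The comparison had 2 samples per group, and the median SE of a member's log2 fold change was 0.099. The part of the depth and of the spread within Foxa1/2cKO in the count of calls was not tested. The count of members with an unadjusted p under 0.05, 1 as reported, was 2 with no filter on low values (802 of 16069 genes), 3 with upper-quartile scaling (594 of 10776), 2 with the length trend removed (479) and 2 with limma-voom (519). *Chd9*, the member reported, was among them with limma-voom alone. With the replicate number as a block (replicate block) it was 0 (378 of all genes), so *Chd9* lost its call. The adjusted count was 0 under each of these settings. Whether the numbers pair the samples is not settled. The correlation of same-numbered deviations over all genes was -0.06. Summed B cell markers had 56.5 FPKM in control 1 and 77.1 in Foxa1/2cKO 1, against 30.2 in control 2 and 34.7 in Foxa1/2cKO 2. Summed myeloid markers had 19.3 and 19.4 FPKM against 12.0 and 9.39, in the same order. The sums of the other marker sets did not split by number. Leaving out each sample in turn, the unadjusted count ranged from 0 to 23 and the adjusted count from 0 to 13.

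Upper-quartile scaling moved the median log2 fold change of all genes from 0.0051 to -0.058. Under it the medians were -0.012 for the members, -0.083 for BAF, 0.021 for CHD, -0.038 for ISWI and INO80 and -0.098 for the partner subunits. With the length trend removed, with or without the replicate block, they were 0.0079 for the members and 0.025 for CHD. Under upper-quartile scaling the log2 fold change of *Ino80* turned to -0.0051, of *Smarca5* to -0.0091 and of *Srcap* to -0.058, and that of *Srcap* was -0.082 with the length trend removed, with or without the block. The cause of these shifts was not tested.

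Leaving out each sample in turn, the median log2 fold change ranged from 0.0077 to 0.079 for the members, from -0.094 to 0.063 for BAF, from 0.071 to 0.15 for CHD, from -0.044 to 0.13 for the other members and from -0.056 to 0.036 for the partner subunits. The log2 fold changes of 9 named members changed sign. They ranged from -0.048 to 0.22 for *Baz2a*, from -0.027 to 0.32 for *Brd2*, from -0.66 to 0.066 for *Chd3os*, from -0.036 to 0.20 for *Chd4*, from -0.62 to 0.19 for *Chd7*, from -0.059 to 0.052 for *Ep400*, from -0.11 to 0.079 for *Smarca2*, from -0.061 to 0.24 for *Smarcd2* and from -0.065 to 0.083 for *Srcap*. The pseudocount of 0.1 changed the direction of 0 named members.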
